A study of Neurospora crassa with 24 samples.

Results

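Gene pairs of *Neurospora crassa* whose transcribed spans overlap on opposite strands were examined for whether their genes change together or in opposite directions. A pair was taken where both genes lie on the same chromosome, are annotated on different strands, and have spans from start to end that overlap by 500 bases or more. This gave 303 pairs made of 603 of the 9758 genes in the count matrix (6.18%), with 3 genes belonging to 2 pairs each. No measured value entered this choice. In 221 pairs the genes converged (their 3′ ends overlapped), in 19 they diverged (their 5′ ends overlapped), and in 63 one span lay inside the other (nested). Overlaps ran from 504 to 8089 bases with a median of 1134 bases, which was 78.3% of the shorter gene in the median pair.

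RNAs copied from both strands of the same DNA are natural antisense transcripts. In filamentous fungi convergent genes often have long 3′ untranslated regions that run into the neighboring gene, while divergent genes share an upstream region from which both promoters can be controlled. Overlapping transcription can hinder the passage of polymerase or form double-stranded RNA, which the RNA silencing machinery of *N. crassa* can cut, but overlapping genes can also be transcribed at different times or in different cells. In bulk RNA, fewer cells of a type and less RNA per cell cannot be told apart, and RNA from both strands need not come from the same cell.

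The libraries were poly(A)-selected RNA of the wild-type strain and of a mutant with the *ve-1* gene deleted (Δ*ve-1*), both in the OR74A background. VE-1 is a velvet protein, a family of fungal regulators of development and light responses. Submerged vegetative mycelia (V) were grown for 48 h, either wholly dark or given white light during the final 30 min, with 2 libraries per strain and condition. Submerged mycelia at the start of the conidiation experiment (S) were harvested after 24 h in the dark, with 4 libraries per strain. Aerial tissue (A15) was taken 15 h after mycelia were moved from liquid to solid medium to induce conidiation. It was again wholly dark or lit during the final 30 min, with 2 libraries per strain and condition. A15 against S thus also spans this change of medium. By the study's text V was a separate experiment at a lower temperature than S and A15. The sample labels give another temperature for S and A15 than that text, and temperature was not used. The labels number the replicates, and the study describes its RNA replicates as independent in general without tying each library to a culture, so the P values measure the spread between these libraries.

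The 24 libraries held from 14010994 to 21885041 counts over genes, so that 3 counts corresponded to 0.137 to 0.214 CPM (a gene's counts scaled to one common library total), and the genes of overlapping pairs took from 4.55% to 8.86% of them. The deleted gene was at 69.3 to 220 CPM in wild-type libraries and at 0.785 to 6.92 CPM in mutant libraries, except for mutant S replicate 1 with 17.3 CPM. *eas*, the gene of the hydrophobin that coats conidia, was at 28175 CPM or more in every A15 library, at most 492 CPM in S and at most 0.662 CPM in V. The median gene of an overlapping pair had a mean level of 20.1 CPM over all libraries, beside 16.4 CPM for all other genes, and 396 of the 603 (65.7%) averaged 10 CPM or more, against 5434 of 9155 (59.4%). Levels in CPM are not scaled by gene length, so they compare samples, not genes.

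The counts were made with the strand taken into account, and the counts of many pairs differed widely between the strands. Summed over the 24 libraries, the lower gene of a pair had a median of 12.2% of the counts of the higher gene (quartiles 1.22% and 38.3%), and in 71 of 303 pairs (23.4%) it had less than 1%. The median was 16.3% for convergent pairs, 0.755% for divergent pairs and 0.901% for nested pairs, and in 52 of the 63 nested pairs the inner gene was the lower. Counts grow with the length of a gene, and the inner gene is by construction the shorter, so these ratios describe counts and not levels per length. The lower gene had no count in any library in 18 pairs, 4 of them convergent, 3 divergent and 11 nested. NCU16762 was at 0 beside 121620 counts of NCU06532, NCU08822 was at 0 beside 66060 counts of *bd*, and NCU07183 was at 0 beside 1373200 counts of NCU07182 over a shared stretch of 905 bases. In those 18 pairs all counts went to one strand. At the other end, NCU06749 and NCU06748 had nearly equal totals, the lower having 99.3% of the higher. Positions of exons were not used here, so the overlap of spans can include introns of either gene.

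**Figure D1:**
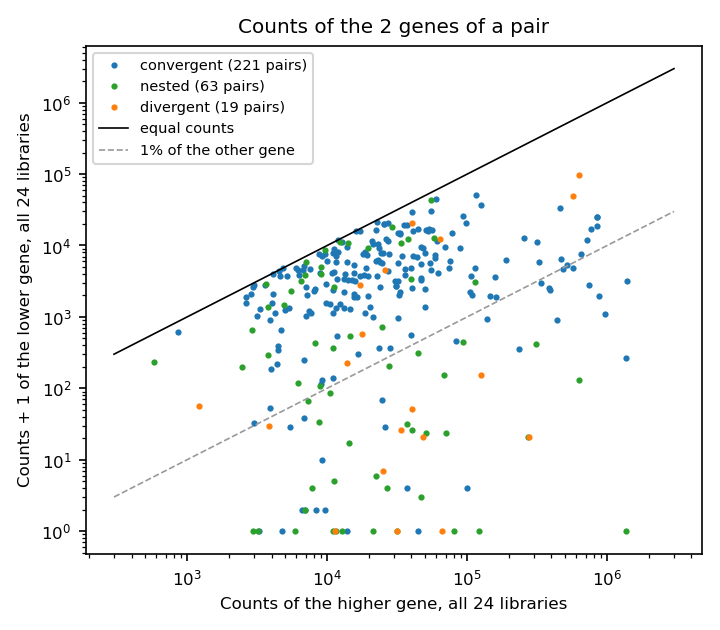
Each point is 1 overlapping pair, with the counts of its higher gene over all 24 libraries on the x axis and the counts plus 1 of its lower gene on the y axis (both log scales), colored by the arrangement of the pair. The solid line marks equal counts and the dashed line 1% of the higher gene, under which 71 of the 303 pairs lie.

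Both genes had a symbol in 5 pairs, all convergent, and these joined genes of different cellular roles. *po* (ribosomal protein P0 of the large subunit) had 880411 counts over the 24 libraries and *msh1* (a MutS homolog of DNA mismatch repair) on the other strand had 1974, or 0.224%. *crp-15* (a cytosolic ribosomal protein) had 647392 and *ro-2* (a dynactin subunit) 7635, or 1.18%. *ubi::crp-6* (ubiquitin fused to a ribosomal protein) had 846940 and *gh18-5* (a glycoside hydrolase of the chitinase family) 25417, or 3%. In each of these 3 pairs the gene of the ribosome took far more counts than its partner. *pro-3* had 55208 and *mcl-1* 4524, or 8.19%, while *hat-1* (a histone acetyltransferase) with 9669 and *pro-1* with 7602 counts were the nearest to each other, at 78.6%.

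Whether the genes of a pair changed in the same direction was asked in 11 comparisons: Δ*ve-1* against the wild type in each of 5 conditions, light against dark in V and A15 of each strain, and A15 dark against S dark of each strain (stage). Each comparison used the fitted log2 fold change (log2FC) of both genes, and only pairs with both genes above a filter on low counts, which were 229 pairs in the V libraries, 245 in the A15 libraries and 248 in S with A15. In the remaining 74, 58 and 55 pairs only 1 gene passed. Neighbors in the gene order that do not overlap served as the comparison, 1714 convergent and 2566 divergent pairs, besides 785 pairs overlapping by fewer than 500 bases and 4329 neighbors on the same strand. Pairs are not replicates, and several comparisons share libraries, so the classes of pairs are described by their shares with no test between them.

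Genes of overlapping pairs moved in the same direction about as often as not. Over the 11 comparisons the share of pairs with the same sign was 48.0% at the lowest, 50.2% at the median and 55.5% at the highest. The same 3 values were 50%, 53.1% and 57.6% for convergent neighbors, and 57.0%, 60.6% and 62.2% for divergent neighbors, which had the higher lowest, median and highest share. Overlaps of fewer than 500 bases had 47.9%, 52.9% and 57.4%, and neighbors on the same strand had 52.7%, 55.5% and 57.8%. Among the overlapping pairs the convergent ones had 46.4%, 49.3% and 55.4%. The few divergent overlapping pairs, 8 to 10 with both genes tested, ranged from 30% to 100%, too few to place.

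With stage, 133 of 248 overlapping pairs had the same sign in the wild type (53.6%, exact binomial 95% interval 47.2% to 60.0%) and 135 of 248 in the mutant (54.4%, 48.0% to 60.7%). With light in V, the share was 49.8% in the wild type (43.1% to 56.4%) and 55.5% in the mutant (48.8% to 62.0%). Between the strains it was 52.8% in S (46.4% to 59.2%), 48.0% in V dark (41.4% to 54.7%) and 51.5% in V light (44.9% to 58.2%). The intervals cover counting error only, and all 7 include 50%. Leaving out 1 library at a time gave mutant stage shares from 45.9% to 55.7%. The share was 46.8% without mutant S replicate 1, the mutant library with the most *ve-1*, and another library moved it further.

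**Figure D2:**
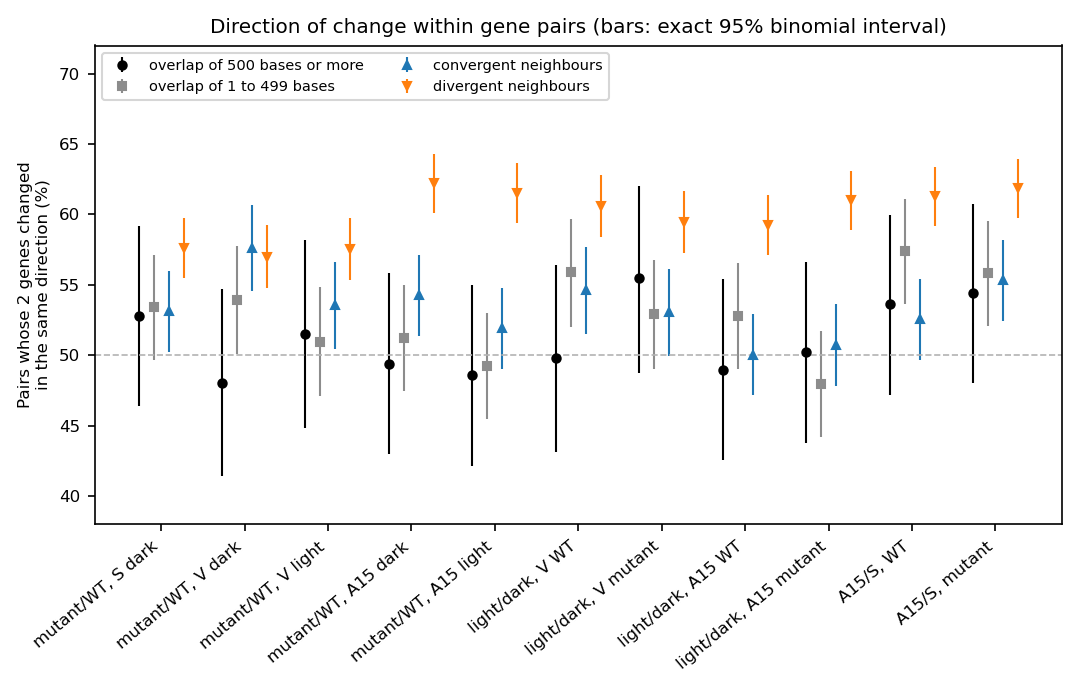
The y axis gives the percent of pairs whose genes had log2FCs of the same sign, and the x axis the 11 comparisons. Points are classes of pairs and bars exact 95% binomial intervals. The overlapping pairs (black) lie between 48.0% and 55.5%, and the divergent neighbors (orange) between 57.0% and 62.2%.

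The sizes of the changes were as loosely linked as their directions. Across overlapping pairs, the correlation of the genes' log2FCs (Pearson r, a description across pairs that share libraries) had a median of 0.13 over the 11 comparisons, beside 0.09 for convergent neighbors and 0.44 for divergent neighbors. The values of the 5 strain comparisons rested on a single pair, NCU09968 and NCU09969. Without it, r between the strains went from 0.45 to 0.11 in S, from 0.59 to -0.06 in V dark, from 0.69 to 0.07 in V light, from 0.24 to -0.07 in A15 dark and from 0.33 to -0.01 in A15 light, and the median over the 11 comparisons was 0.02.

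The stage comparison called the most genes. A gene was called when its adjusted P was under 0.05 in edgeR's quasi-likelihood test, with Benjamini-Hochberg adjustment over all genes tested. In the wild type 27% of all 8239 tested genes were called, and of the 548 tested genes of overlapping pairs 142 were (25.9%), 70 higher in A15 (12.8%, beside 17.5% of all genes) and 72 lower (13.1%, beside 9.47%). In the mutant 44.3% of all genes were called, and 255 of the 548 (46.5%), 102 higher (18.6%, beside 25.1%) and 153 lower (27.9%, beside 19.2%). With libraries scaled by their totals alone, which shifted the median log2FC of all genes by 0.42 and 0.26, the splits of the pairs' genes became 99 higher and 39 lower in the wild type, against 121 and 110 in the mutant. The split of all genes under that scaling was not taken, so these counts have no comparison with all genes. The shares called in either direction together were near those of all genes.

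Where a pair had a called gene, its partner was in most cases not called. Most genes of the tested overlapping pairs were not called with stage: 26.0% were called for the wild type, against 46.8% for Δ*ve-1*. Tested convergent neighbors had 26.9% and 44.0% of their genes called. At these shares an uncalled partner is the usual case, so it is not evidence about the pairs. In the wild type neither gene was called with stage in 136 of 248 pairs, 1 gene in 95, both in the same direction in 8 and both in opposite directions in 9. In the mutant neither gene was called in 67 pairs, 1 gene in 130, both in the same direction in 29 and both in opposite directions in 22. In the wild type, both genes were called in the same direction in 70 of 1193 tested convergent neighbors and in opposite directions in 26. In the mutant the counts were 146 and 100. Among 2082 tested divergent neighbors the counts were 163 and 24 in the wild type, against 321 and 91 in the mutant. The counts of overlapping pairs rested on single libraries: without either WT A15 dark library 3 same and 2 opposite pairs were left in the wild type, without mutant A15 dark replicate 2 the mutant had 8 and 8, without mutant S replicate 3 it had 23 and 14, and without mutant S replicate 1 it had 34 and 21.

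**Figure D3:**
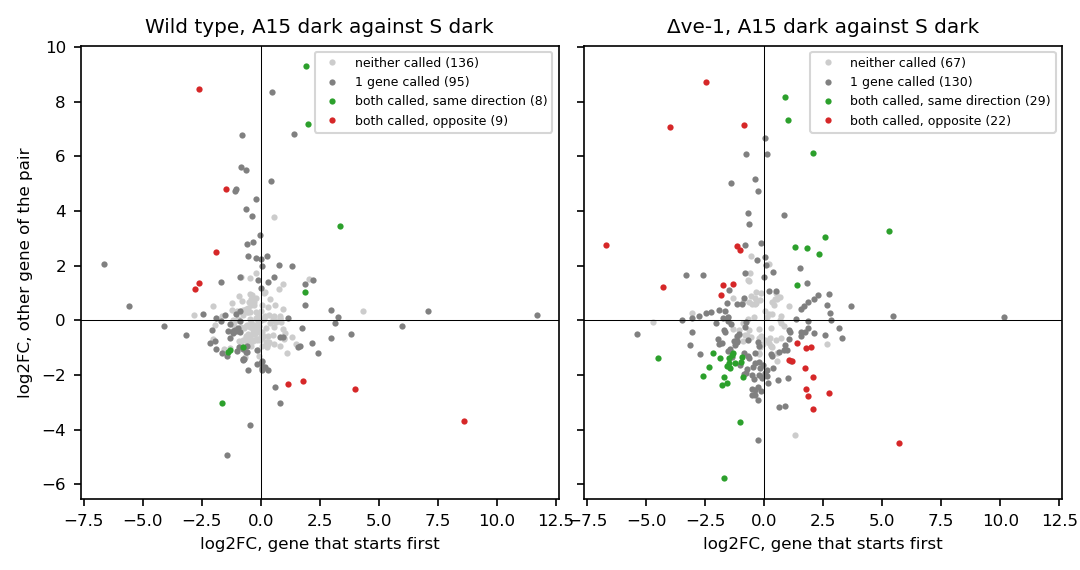
Each point is 1 overlapping pair in the stage comparison (A15 dark against S dark), wild type on the left and Δ*ve-1* on the right, with the log2FC of the gene that starts first on the x axis and of its partner on the y axis. The pairs with both genes called lie in all 4 quadrants, 8 with the same and 9 with opposite directions in the wild type, against 29 and 22 in the mutant.

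Where only 1 gene was called, the partner is by this choice an uncalled gene, so a small change in it is partly built in. Of the 46 wild-type pairs with a gene higher in A15 (median log2FC 2.38), the partner had the same sign in 19 (41.3%, 27.0% to 56.8%) and a median log2FC of -0.20. Of the 49 pairs with a gene lower in A15 (median -1.51), the partner had the same sign in 33 (67.3%, 52.5% to 80.1%) and a median of -0.37. In the mutant the shares were 46.8% of 47 pairs and 62.7% of 83 pairs, with partner medians of 0.00 and -0.21. The medians of all tested genes were 0.02 (wild type) and 0.10 (mutant), and those of the pairs' genes -0.19 and -0.25. In convergent neighbors the partner of a higher and of a lower gene had the same sign in 53.2% and 58.2% in the wild type. The mutant shares were 57.0% and 52.6%. In divergent neighbors these shares were 64.1% and 70.8% in the wild type, against 55.5% and 64.4% in the mutant.

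Whether the genes of a pair changed by different amounts was tested over libraries, as the difference between their log2 CPM in each library (limma, adjusted over all 7233 overlapping and neighboring pairs with both genes tested). With stage this difference changed in 74 of 248 overlapping pairs in the wild type (29.8%, beside 26.8% of all pairs tested) and in 129 in the mutant (52.0%, beside 42.8%). Convergent neighbors had 29.6% and 44.2%, and the convergent ones among the overlapping pairs 27.0% and 50.5%. The difference passed for 9 of the 9 wild-type pairs called in opposite directions and for 1 of the 8 called in the same direction. In the mutant it passed for 21 of 22 opposite pairs, for 8 of 29 same-direction pairs, and for 85 of the 130 pairs with 1 gene called. These classes were set by calls on the same libraries. How often each class passed therefore follows largely from the calls and is no separate evidence.

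The pair with the most opposed stage responses by the smaller of its 2 changes was NCU02195 and NCU02194, which converge on chromosome VII of the NC12 build, NCU02195 at 3378252 to 3380532 on the plus strand and NCU02194 at 3378280 to 3384319 on the minus strand. The shared stretch of 2253 bases covers nearly all of NCU02195, an amino acid permease gene by its name in the study's annotation (*aap-23*). NCU02195 had no count in any wild-type S library and no count in any V library, and was at 4.22 and 1.54 CPM in WT A15 dark, at least 14.3-fold above the level of 3 counts per library (adjusted P = 0.00241). In the mutant it was at 0, 0.481, 0 and 0 CPM in S and at 7.91 and 6.12 CPM in A15 dark (adjusted P = 0.00121). The 2 sets of libraries did not overlap in either strain. NCU02194 moved the other way, from 119, 164, 420 and 503 CPM in WT S to 21.0 and 25.7 CPM in WT A15 dark (log2FC -3.68, SE 0.58, adjusted P = 0.000306), and from 192 to 302 CPM in mutant S to 10.7 and 10.1 CPM (log2FC -4.50, SE 0.61, adjusted P = 4.93e-05). In light-exposed mutant A15 tissue NCU02195 reached 37.3 and 9.76 CPM. NCU02194, at 114 to 185 CPM in V, was thus high wherever NCU02195 had few or no counts.

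NCU09788 and *ad-8* converge on chromosome VI (1124166 to 1126773 plus, 1125094 to 1129467 minus) and share 1680 bases. *ad-8* encodes adenylosuccinate synthetase, an enzyme of purine synthesis, and NCU09788 is named *nuc-14* in the study's annotation. NCU09788 rose from 5.48, 5.85, 3.72 and 6.18 CPM in WT S to 55.1 and 108 CPM in A15 dark (log2FC 3.97, SE 0.62, adjusted P = 0.000267), and from 0.556 to 2.82 CPM in mutant S to 10.1 and 12.4 CPM (log2FC 2.73, SE 0.63, adjusted P = 0.003). *ad-8* fell in the same tissue, from 473, 545, 1886 and 854 CPM to 132 and 190 CPM in the wild type (log2FC -2.53, SE 0.61, adjusted P = 0.00715) and from 553 to 1337 CPM to 87.0 and 197 CPM in the mutant (log2FC -2.68, SE 0.62, adjusted P = 0.00289). No A15 dark library overlapped the S libraries for either gene, and the call of *ad-8* in the wild type was lost without WT A15 dark replicate 1 (log2FC -2.31).

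NCU11365 (*egt-2* in the study's annotation, an ergothioneine gene) and NCU11364 converge on chromosome IV (191867 to 194669 plus, 193862 to 195389 minus) over 808 bases. NCU11365 was at 15.9, 16, 51.2 and 18.6 CPM in WT S and at 3.96 and 4.16 CPM in A15 dark (log2FC -2.63, SE 0.73, adjusted P = 0.0161). Without either WT A15 dark library this call was lost, at log2FCs of -2.60 and -2.66. In the mutant it fell from between 28.9 and 135 CPM to 6.90 and 2.89 CPM (log2FC -4.0, SE 0.79, adjusted P = 0.00104). NCU11364 had no count in any WT S library and was at 2.35 and 2.98 CPM in WT A15 dark, at least 13.3-fold above 3 counts per library (adjusted P = 0.000595). It was in mutant A15 dark at 6.27 and 0.826 CPM, beside at most 0.0795 CPM in mutant S (adjusted P = 0.000353).

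*trp-3*, the gene of tryptophan synthetase, fell in A15 while NCU16588 on the other strand rose from very low levels. The genes lie at 3963581 to 3967727 (plus) and 3966237 to 3967930 (minus) of chromosome II and share 1491 bases. *trp-3* was at 350, 323, 774 and 364 CPM in WT S and at 114 and 122 CPM in A15 dark (log2FC -1.92, SE 0.47, adjusted P = 0.00766). NCU16588 was at 0.198, 0.211, 0.608 and 0.482 CPM in WT S and at 2.26 and 1.95 CPM in A15 dark (log2FC 2.51, SE 0.59, adjusted P = 0.00605). Both calls depended on WT A15 dark replicate 1, without which the log2FCs were -1.88 and 2.39, and that of *trp-3* also on replicate 2 (-1.97). In the mutant *trp-3* fell (log2FC -1.48, adjusted P = 0.0166) and NCU16588 had a log2FC of 1.09 (adjusted P = 0.154).

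One pair had both genes past the threshold the study set for large changes (log2FC of at least 2 in either direction and adjusted P under 0.001) in opposite directions. NCU00078 and NCU00079 converge on chromosome III (2535597 to 2538405 plus, 2536487 to 2538432 minus), and all but a few bases of NCU00079 lie within NCU00078. In the mutant, NCU00078 rose from 48.0, 37.0, 33.9 and 36.9 CPM in S to 176 and 154 CPM in A15 dark (log2FC 2.07, SE 0.29, adjusted P = 7.01e-05), and NCU00079 fell from 16.2, 32.4, 30.4 and 43.2 CPM to 4.01 and 2.34 CPM (log2FC -3.25, SE 0.47, adjusted P = 8.69e-05). In the wild type the log2FCs were 1.13 (adjusted P = 0.0114) and -2.33 (adjusted P = 0.00158), in the same directions. By that threshold 26 of the 548 genes of overlapping pairs changed with stage in the wild type, 21 of them higher (6.07% of all genes passed), and 54 in the mutant, 26 of them higher (11.8% of all genes), and only 1 pair in each strain had both genes past it in the same direction.

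Of the longest overlaps with both genes tested in V and in S with A15, 2 were divergent, and both had opposite stage responses. NCU05338 and NCU05340 (*aso-1* in the study's annotation) share 2935 bases on chromosome II (1366019 to 1369922 minus, 1366988 to 1370144 plus). In the mutant NCU05338 was at 15263, 796, 3026 and 489 CPM in S and at 41.6 and 54.9 CPM in A15 dark (log2FC -6.71, adjusted P = 0.00149), while NCU05340 was at 63.4, 32.5, 63.7 and 27.6 CPM in S and at 240 and 399 CPM in A15 dark (log2FC 2.75, SE 0.57, adjusted P = 0.00137). In the wild type NCU05338 fell as well (log2FC -5.57, adjusted P = 0.00646), but the NCU05340 libraries overlapped, at 39.4, 44.1, 144 and 141 CPM in S and 159 and 99.2 CPM in A15 dark (log2FC 0.51, adjusted P = 0.55). NCU07126 and NCU07127 have nearly the same span on chromosome VI (57463 to 60475 minus, 57481 to 60490 plus). NCU07126 fell (log2FC -2.80 in the wild type, adjusted P = 0.00531, and -4.27 in the mutant, adjusted P = 0.000254), and NCU07127 rose (1.13, adjusted P = 0.0235, and 1.21, adjusted P = 0.0104).

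The other 3 of these 5 longest overlaps had 1 gene called in the mutant. In NCU08689 and NCU08688 (3481 bases, convergent) NCU08689 rose in the mutant (log2FC 1.85, adjusted P = 0.00132) with its partner at -0.27 (adjusted P = 0.64). In NCU07954 and *pod-1* (3311 bases, nested), NCU07954 fell (-1.93, adjusted P = 0.000803) with *pod-1*, a gene of cell polarity, at 0.36 (adjusted P = 0.524). In *pro-3* and *mcl-1* (2970 bases, convergent), *pro-3* fell in the mutant (-1.96, adjusted P = 0.000145) and in the wild type (-1.19, adjusted P = 0.00733), and *mcl-1* had -0.68 (adjusted P = 0.0658) and -0.45 (adjusted P = 0.255).

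Pairs that rose or fell together with stage included genes with very different levels. NCU06613 (*tam-3* in the study's annotation, an ammonium transporter name) and NCU06614 converge on chromosome IV (1806509 to 1809215 plus, 1808501 to 1811016 minus) over 715 bases. NCU06613 was at 0.528, 0.846, 0.456 and 0.161 CPM in WT S and at 5.39 and 4.77 CPM in A15 dark (log2FC 3.36, SE 0.47, adjusted P = 9.17e-05), and NCU06614 at 0.330, 0.352, 2.20 and 1.69 CPM in S and at 11.9 and 12.6 CPM in A15 dark (log2FC 3.45, SE 0.60, adjusted P = 0.000642). Their log2 difference changed by -0.47 (limma, adjusted P = 0.73). Both also rose in the mutant, by 2.32 (adjusted P = 0.00119) and 2.44 (adjusted P = 0.00398), and this was the single wild-type pair with both genes past the study's threshold.

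NCU06076 and *ace-8*, the gene of pyruvate kinase, diverge on chromosome VII over 965 bases, and both fell. NCU06076 was at 235, 311, 549 and 402 CPM in WT S and at 112 and 127 CPM in A15 dark (log2FC -1.63, SE 0.42, adjusted P = 0.0105), and *ace-8* was at 985, 1059, 4529 and 2379 CPM and at 160 and 385 CPM (log2FC -3.03, SE 0.70, adjusted P = 0.00574). The call of NCU06076 was lost without either WT A15 dark library (-1.55 and -1.71) and that of *ace-8* without replicate 1 (-2.54). In the mutant they fell by 1.04 (adjusted P = 0.0496) and 3.74 (adjusted P = 0.000987) on the log2 scale. *ace-8* also overlaps NCU06074, which had 129 counts in all libraries beside its 629750.

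In 2 more pairs, a gene with no or few counts in S rose next to one that was already measurable. NCU07894 (*opt-3* in the study's annotation) had at most 3 counts in any WT S library and was at 69.2 and 75.2 CPM in A15 dark (adjusted P = 2.04e-06), and NCU07895, with which it shares 1905 bases, rose from 19.7, 17.1, 19.4 and 30.0 CPM to 64.0 and 96.8 CPM (log2FC 1.93, adjusted P = 0.00105). The polyketide synthase gene *pks-5* lies within NCU09637 over the longest overlap of all, 8089 bases at 11075 to 19163 of chromosome IV. *pks-5* had no count in any S, V or mutant library, was at 1.04 and 1.13 CPM in WT A15 dark, at least 5.41-fold above 3 counts per library (adjusted P = 0.00573), and at 25.1 and 6.44 CPM in WT A15 light. DESeq2 did not call that stage change. NCU09637 rose in the wild type from 14.9, 13.3, 25.7 and 23.4 CPM to 76.4 and 73.5 CPM (log2FC 1.98, adjusted P = 0.00129), and stood at 81.2 and 66.1 CPM in mutant A15 dark with *pks-5* at 0.

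In the mutant, NCU09419 (*cyp450-25* in the study's annotation, a cytochrome P450 name) and the nested NCU09420 (*hsp20*, a small heat shock protein name) both passed the study's threshold. NCU09419 rose from 3.29, 5.22, 4.69 and 7.13 CPM in S to 23.5 and 19.5 CPM in A15 dark (log2FC 2.08, adjusted P = 0.000111), and NCU09420 from 1.53, 0.275, 0.397 and 0.143 CPM to 31.3 and 51.1 CPM (log2FC 6.13, adjusted P = 0.00013). In the wild type NCU09419 rose by a similar fitted amount (log2FC 2.23, adjusted P = 9.17e-05), and NCU09420 had overlapping libraries, at 0.132, 0.564, 1.14 and 4.50 CPM in S and 5.61 and 2.93 CPM in A15 dark (log2FC 1.48, adjusted P = 0.215). NCU09420 differed between the strains in A15 dark (log2FC 3.25, adjusted P = 0.0295) while NCU09419 had a log2FC of -0.20 there (adjusted P = 0.793). NCU09567 and NCU09566 (1557 bases, convergent) were also called together in the mutant, but the log2FC of NCU09567, 2.59 (adjusted P = 0.00935), rested on mutant A15 dark replicate 2 with 264 CPM beside 28.4 CPM in replicate 1, and was 0.24 without it. NCU09566 had a log2FC of 3.04 (adjusted P = 0.0002).

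**Figure D4:**
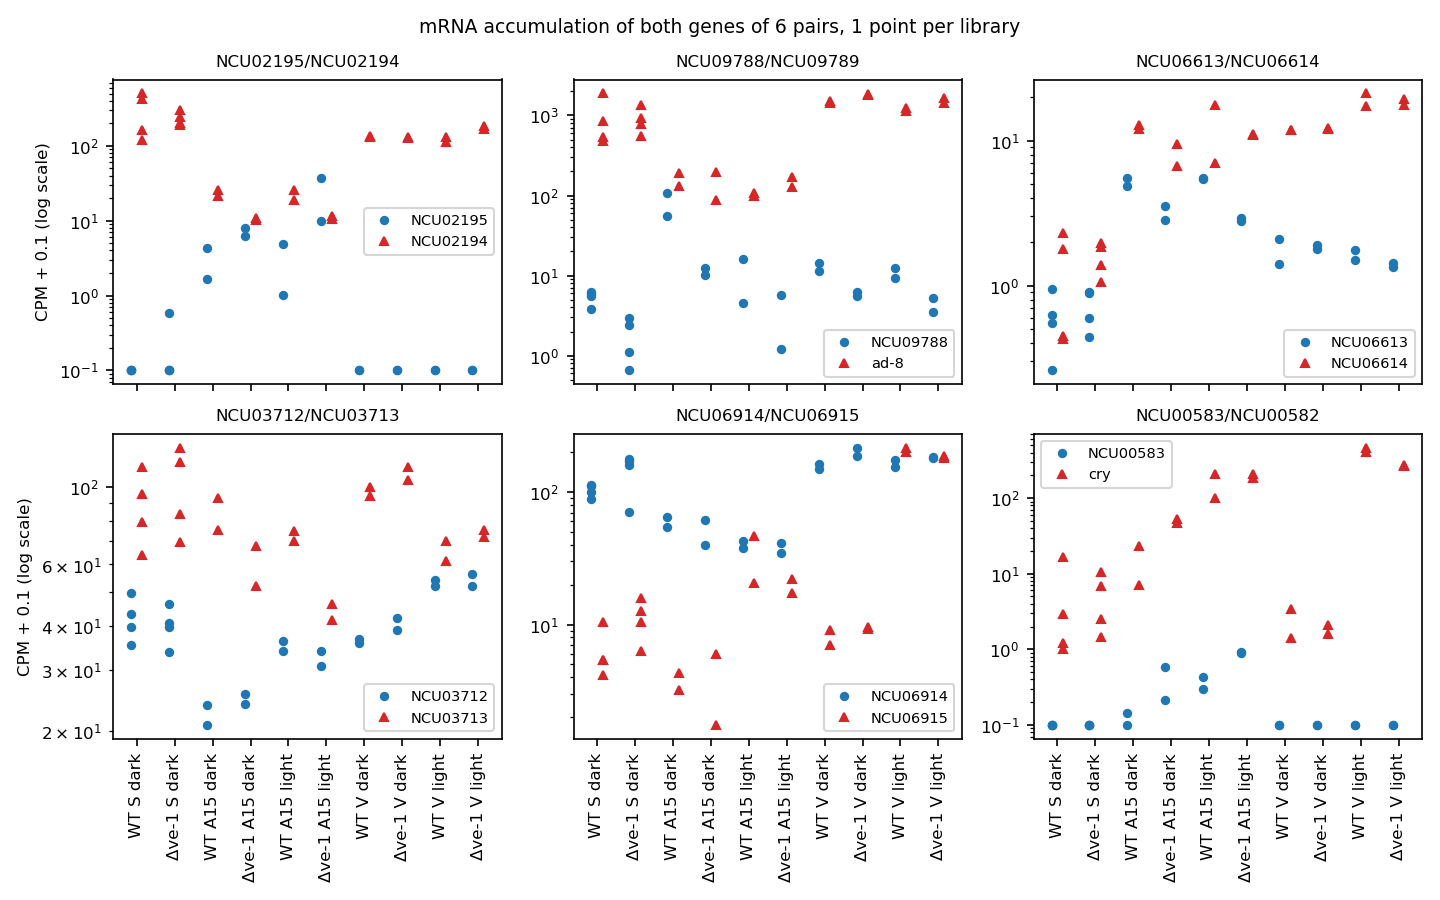
Each panel shows 1 pair, with CPM plus 0.1 on a log y axis and the 10 groups on the x axis, and each point is 1 library. NCU02195 and NCU02194 move in opposite directions between S and A15 dark, and so do NCU09788 and *ad-8*. NCU06613 and NCU06614 are both higher in A15. NCU03712 and NCU03713 move in opposite directions with light in V. NCU06915 and *cry* rise with light while their partners stay where they were or at 0 in V.

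Light changed fewer genes in V. In the wild type 15.4% of all 7760 tested genes were called, and 72 of 529 genes of overlapping pairs (13.6%), 33 higher and 39 lower (7.98% and 7.4% of all genes). In the mutant 12.8% of all genes were called, and 55 of 529 (10.4%), 31 higher and 24 lower (7.07% and 5.73% of all genes). A fit to all 24 libraries called 9 and 7 of the pairs' genes (1.63% and 1.27%, beside 1.67% and 1.19% of all genes). Both genes of a pair were called in the same direction in 6 pairs and in opposite directions in 1 in the wild type, against 3 and 1 in the mutant, while 45 and 36 pairs had 1 gene called. The 1954 tested divergent neighbors had 90 same and 7 opposite in the wild type, against 69 and 5 in the mutant. The 1027 tested convergent neighbors had 17 and 11 in each strain. The log2 difference within a pair changed in 28 overlapping pairs in the wild type (12.2%, beside 14.5% of all pairs) and in 23 in the mutant (10%, beside 13%). Convergent neighbors had 18.7% and 16.1%. With a replicate block more genes of pairs were called, 113 and 109 (21.4% and 20.6%, beside 26.1% and 23.6% of all genes). More pairs were then called in opposite directions in each strain. Single libraries decided the small counts: 3 and 2 same-direction pairs were left without WT V dark replicates 1 and 2, and 2 without WT V light replicate 2, without which the share with the same sign was 57.7%. No opposite pair was called without WT V dark replicate 2, and without WT V light replicate 1 the 1 opposite pair was a different one. In the mutant 1 same-direction pair was left without V dark replicate 1 or without V light replicate 2, and the opposite pair was lost without any 1 of the 4 libraries.

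The pair called in opposite directions with light was the same in both strains, NCU03712 and NCU03713, which converge on chromosome V (2174918 to 2177074 plus, 2175006 to 2179711 minus) over 2069 bases, nearly the whole of NCU03712. In the wild type NCU03712 stood at 36.7 and 35.6 CPM in dark libraries and rose to 54.2 and 51.8 CPM with light (log2FC 0.54, SE 0.11, adjusted P = 0.00997), and NCU03713 fell from 94.1 and 100 CPM to 61.3 and 70.0 CPM (log2FC -0.57, SE 0.12, adjusted P = 0.012). In the mutant NCU03712 went from 42.0 and 38.9 to 56.2 and 52.0 CPM (log2FC 0.43, adjusted P = 0.0314) and NCU03713 from 104 and 114 to 71.9 and 75.3 CPM (log2FC -0.56, adjusted P = 0.0142). The dark and light libraries did not overlap for either gene in either strain, and the log2 difference of the pair rose by 1.12 (limma, adjusted P = 0.00326) and 0.99 (adjusted P = 0.00639). The wild-type calls were lost without WT V dark replicate 2 (0.52 and -0.53), that of NCU03713 also without WT V light replicate 1 (-0.48), and in the mutant that of NCU03712 without any 1 of the 4 libraries (0.37 to 0.48) or in DESeq2.

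Pairs called in the same direction with light included 2 in both strains. NCU05252 and NCU05251, which have the shortest overlap taken, 504 bases, both fell: NCU05252 from 56.4 and 55.6 CPM to 36.5 and 30.9 CPM in the wild type (log2FC -0.74, adjusted P = 0.00396, and -0.77 in the mutant, adjusted P = 0.00356), and NCU05251 from 20.9 and 27.5 CPM to 11.4 and 10.1 CPM (log2FC -1.18, adjusted P = 0.00161, and -0.97 in the mutant, adjusted P = 0.00487). NCU07120 and NCU07119, over 2458 bases, both rose: NCU07119 from 10.6 and 7.75 CPM to 22.6 and 21.9 CPM in the wild type (log2FC 1.26, adjusted P = 0.00216), and NCU07120 from 52.3 and 62.4 CPM to 78.3 and 111 CPM (log2FC 0.71, adjusted P = 0.0476). The call of NCU07120 was lost without WT V light replicate 2 (0.43), WT V dark replicate 1 (0.58) or WT V dark replicate 2 (0.85). NCU09354 and NCU09355, over 2903 bases, fell in the wild type (log2FCs -0.91, adjusted P = 0.00531, and -0.74, adjusted P = 0.00393), and had 0.03 (adjusted P = 0.945) and -0.33 (adjusted P = 0.124) in the mutant. That difference between the strains was not called for any gene of a pair: in the test of light response by strain in V, edgeR called 0 of the 529 genes and 0 of all 7760, with 15 at an unadjusted P under 0.05 (2.84%, beside 2.44% of all genes).

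The strongest light responses among the pairs' genes stood beside partners that were not called. These pairs were picked after their values were seen, as those with a gene past the study's threshold, of which there were 7 genes in the wild type (1.3% of all genes passed) and 6 in the mutant (1.01%), all higher in the light. *cry*, the gene of a cryptochrome of the blue-light receptor family, rose from 3.32 and 1.31 CPM to 463 and 412 CPM in the wild type (log2FC 7.52, adjusted P = 2.11e-06) and by 7.26 in the mutant (adjusted P = 2.45e-06), while NCU00583, which diverges from it on chromosome I and lies almost wholly within the 681 shared bases (7931551 to 7932266 minus, *cry* 7931586 to 7935778 plus), had no count in any V library. NCU06915 rose from 9.04 and 6.85 CPM to 213 and 200.3 CPM (log2FC 4.69, adjusted P = 1.06e-06), and NCU06914, convergent with it over 1313 bases on chromosome VII, was at 164 and 148 CPM in the dark and 154 and 174 CPM in the light (log2FC 0.07, adjusted P = 0.794). NCU00360 rose from 11.4 and 12.5 CPM to 145 and 215 CPM (log2FC 3.90, adjusted P = 9.95e-06) with NCU00361, over 1210 bases, at 11.4 and 18.7 CPM in the dark and 15.1 and 16.6 CPM in the light (log2FC 0.07, adjusted P = 0.892). NCU06662 rose from 5.37 and 4.22 CPM to 54.0 and 48.0 CPM (log2FC 3.40, adjusted P = 8.85e-06) beside NCU06661 at 1356 and 2097 CPM in the dark and 1387 and 1331 CPM in the light (log2FC -0.36, adjusted P = 0.327). The remaining genes past the threshold were NCU00761 (log2FC 3.27, nested partner NCU00760 with no count in V), NCU17113 (5.18, partner NCU03969 not tested) and NCU07962 (2.04, partner NCU07963 at 0.09). In the 3 pairs given with levels of a measured partner, the partner's dark and light libraries overlapped.

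Across all pairs with 1 gene called with light in the wild type, the partner followed no more often than not. It had the same sign in 8 of 21 pairs whose called gene was higher (38.1%, 18.1% to 61.6%, partner median log2FC -0.07) and in 14 of 24 whose called gene was lower (58.3%, partner median -0.05). In divergent neighbors the partner had the same sign in 72.8% and 71.2%, and in convergent neighbors in 53.4% and 50.6%.

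In A15, edgeR called no gene of an overlapping pair with light, in either strain, and 0 of all 8193 tested genes (0%). *vvd* was among the uncalled genes, though it stood at 8.73 and 8.74 CPM in WT A15 dark and at 270 and 271 CPM in WT A15 light. The 0 thus does not show that light changed no gene. At an unadjusted P under 0.05 there were 39 of the pairs' genes in the wild type (9.26% of all genes) and 59 in the mutant (12.3%). DESeq2 called 11 of 531 genes of pairs in the wild type (2.82% of all genes) and 16 of 545 in the mutant (3.48%), with both genes of 1 pair in each strain, in the same direction. A fit of edgeR to all 24 libraries called 5 and 4 (0.906% and 0.725%, beside 0.653% and 0.738% of all genes). Without mutant A15 dark replicate 1, edgeR called both genes of 2 pairs in the mutant. NCU06915 stood at 4.22 and 3.13 CPM in WT A15 dark and 46.5 and 20.6 CPM in WT A15 light (log2FC 3.20, adjusted P = 0.144), beside NCU06914 at 53.9 and 64.1 CPM and 37.9 and 42.9 CPM (log2FC -0.53, adjusted P = 0.703). *cry* stood at 22.9 and 7.08 CPM and 208 and 99.9 CPM (log2FC 3.36, adjusted P = 0.134), and NCU00583 at 1 and 0 counts in the dark and 7 and 4 counts in the light. The dark and light libraries did not overlap for NCU06915, for NCU06914 or for *cry*.

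*cry* and NCU00583 were also both called higher with stage in the mutant. *cry* was at 2.41, 1.37, 6.76 and 10.4 CPM in mutant S and at 47.5 and 52.2 CPM in mutant A15 dark (log2FC 3.25, adjusted P = 0.0111). NCU00583 had no count in the mutant S libraries and 2 and 7 counts in A15 dark (adjusted P = 0.0167), at least 1.53-fold above 3 counts per library, a call that was lost without mutant A15 dark replicate 2. NCU00583 was near the limit of what these libraries count.

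Between the strains few pairs had both genes called in these fits, among overlapping pairs and among neighbors. In V dark 9.79% of all genes were called, and 44 of 529 genes of pairs (8.32%), 16 higher and 28 lower in the mutant (3.52% and 6.28% of all genes). In V light 10.3% were called, and 47 of 529 (8.88%), 26 higher and 21 lower (4.41% and 5.88% of all genes), a split that was 14 and 20 with libraries scaled by their totals. In A15 dark 3.08% were called, and 7 of 545 (1.28%). In A15 light 4.65% were called, and 20 of 545 (3.67%), 8 higher and 12 lower (1.75% and 2.9% of all genes), or 4 and 16 with libraries scaled by their totals. The splits of all genes under that scaling were not taken. In S, where 0.655% were called, 4 of 548 genes of pairs were (0.73%). These counts depended on the fit, as did those of all genes. DESeq2 called 28 genes of pairs in S (5.13% of all genes), 43 in A15 dark (10.4%) and 67 in A15 light (12.7%). A fit to all 24 libraries called 34, 24 and 40 there (5.39%, 5.65% and 8.50% of all genes). It called 4 in V dark and 5 in V light (0.472% and 0.435% of all genes). Both genes of a pair were called in the same direction in 2 of 229 pairs and in opposite directions in 1 pair in V dark and again in V light, and 34 and 33 pairs had 1 gene called. The 1027 tested convergent neighbors had 7 same and 5 opposite in V dark, and 7 and 6 in V light. The 1954 tested divergent neighbors had 42 and 7 in V dark, and 40 and 4 in V light. The log2 difference within a pair changed in 26 pairs in V dark (11.4%, beside 10.5% of all pairs) and in 25 in V light (10.9%, beside 9.22%). Convergent neighbors had 11.9% and 9.25%. With a replicate block more genes of pairs were called in V dark and V light, 122 and 109 (23.1% and 20.6%, beside 25.6% and 24.1% of all genes). More pairs then had both genes called, in either direction. In V dark 1 same-direction pair was left without either mutant library or WT replicate 2, and the opposite pair was lost without mutant replicate 1 or either WT library, and in V light 1 same and 0 opposite pairs were left without any 1 of the 4 libraries. Convergent neighbors had 1 same and 0 opposite of 1193 in S. They had 3 and 1 of 1179 in A15 dark, and 4 and 0 of 1179 in A15 light. Divergent neighbors had 3 and 0 of 2082 in S, 9 and 0 of 2067 in A15 dark, and 18 and 0 of 2067 in A15 light. Of the overlapping pairs, a single one had both genes called in S (248 tested) and in A15 (245 tested). In A15 dark and light these counts depended on single libraries.

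That pair was NCU09968 and NCU09969, which diverge on chromosome VI over 1364 bases and were called lower in the mutant in all 5 strain comparisons, though in A15 dark calls were lost without WT replicate 2 (both genes) or WT replicate 1 (NCU09969), and in A15 light that of NCU09969 without either mutant library. NCU09968 was at 62.6 to 236 CPM in wild-type libraries and at most 0.723 CPM in mutant libraries, and NCU09969 at 12.3 to 46.0 CPM and at most 0.562 CPM.

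The other pairs called in V had small changes in 1 of the genes. NCU05991 and NCU05990 (945 bases, convergent, chromosome VI) moved in opposite directions in the dark, NCU05991 from 31.1 and 27.3 CPM in the wild type to 48.8 and 37.6 CPM in the mutant (log2FC 0.55, adjusted P = 0.0453) and NCU05990 from 9.57 and 13.4 CPM to 4.87 and 5.61 CPM (log2FC -1.14, adjusted P = 0.00918). Both calls were lost without mutant V dark replicate 1 (0.37 and -1.02) or WT V dark replicate 2 (0.46 and -0.87), and that of NCU05991 also without WT V dark replicate 1 (0.65). In the light NCU05990 fell by 1.31 (adjusted P = 0.0053) with NCU05991 at 0.25 (adjusted P = 0.341). NCU00696 and NCU00695 (2270 bases, nested, chromosome I) had log2FCs of 0.48 (adjusted P = 0.0253) and -1.14 (adjusted P = 0.0385) in the light, and 0.33 (adjusted P = 0.0903) and -0.98 (adjusted P = 0.0642) in the dark. The calls in the light were lost without any 1 library but WT V light replicate 1 for NCU00695, and without any of the 4 for NCU00696.

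NCU01297 carried one of the larger strain differences of the pairs. It was at 148 and 184 CPM in WT V dark and at 21.8 and 41.3 CPM in the mutant (log2FC -2.40, adjusted P = 0.00185), and was lower by a fitted log2FC of -2.47 in V light and -2.72 in A15 light (adjusted P = 0.0429). NCU01296, convergent with it over 2123 bases on chromosome V, was at 131 and 145 CPM in the wild type and 103 and 96.1 CPM in the mutant in V dark (log2FC -0.49, adjusted P = 0.0327), a call lost without WT V dark replicate 2 (-0.41) or either mutant library (-0.52 and -0.45), and had -0.17 in V light (adjusted P = 0.422). NCU02726 and NCU02727 (1581 bases, convergent, named *gpl-4* and *gly-3* in the study's annotation) were both higher in the mutant in V light, at 31.3 and 31.1 CPM against 44.3 and 42.0 CPM (log2FC 0.48, adjusted P = 0.028) and at 66.0 and 65.1 CPM against 92.9 and 90.3 CPM (log2FC 0.49, adjusted P = 0.0187). Both calls were lost without any 1 of the 4 libraries, though the libraries of the strains did not overlap. NCU09562, picked after its values were seen, was higher in the mutant in V dark, 90.3 and 53.9 CPM against 8.92 and 5.54 CPM (log2FC 3.30, adjusted P = 0.000471), with NCU09561 on the other strand at 2.10 and 3.26 CPM against 5.02 and 3.25 CPM (log2FC -0.62, adjusted P = 0.197).

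Whether stage or light acted differently on the pairs' genes in the mutant was tested as an interaction, a test added after the comparisons were seen. For stage by strain edgeR called 0 of 548 genes of pairs, and 2 of all 8239 genes (0.0243%), with 66 at an unadjusted P under 0.05 (12.0%, beside 12.7% of all genes) and a smallest adjusted P of 0.117. For light by strain in A15 it called 0 of 545 and 0 of all 8193, with 10 unadjusted (1.83%, beside 2.45%). As no gene was called with light in A15 of either strain, this 0 cannot show that the strains responded alike. A pair called in one strain alone is therefore not shown to differ between the strains.

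Over all 10 groups, the genes of overlapping pairs followed each other as often as they ran against each other. In the 252 pairs with enough counts, the correlation of the genes' group means of log2 CPM (Pearson r over 10 groups that share strains and stages, a description) had a median of 0.02. It was above 0.7 in 27 pairs (10.7%) and below -0.7 in 26 (10.3%). Convergent neighbors had a median of 0.10, with 13.8% above 0.7 and 8.58% below -0.7, and divergent neighbors a median of 0.41, with 28.3% and 5.30%. Nested pairs had a median of 0.24 over 36 pairs, and overlaps of fewer than 500 bases 0.15 over 704.

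**Figure D5:**
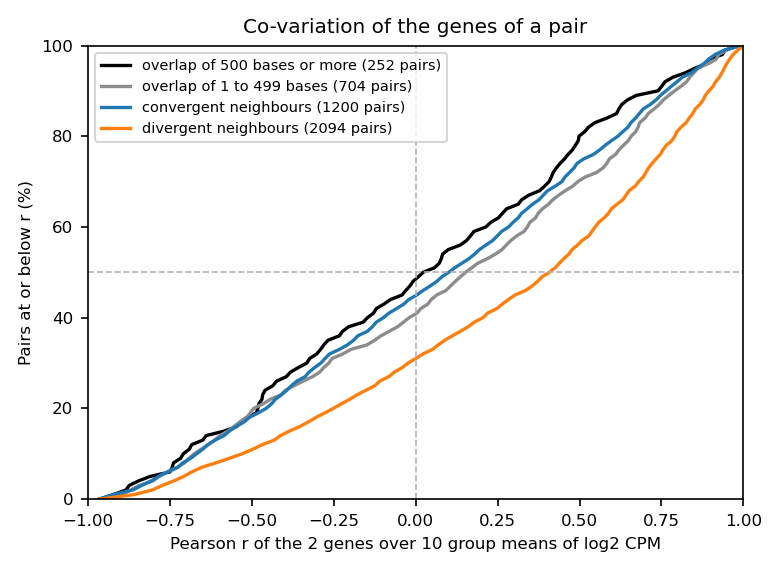
The x axis is the Pearson r of the genes of a pair over the 10 group means of log2 CPM, and the y axis the percent of pairs at or below it, with 1 line per class of pairs. The line of the 252 overlapping pairs crosses 50% at 0.02, that of convergent neighbors at 0.10 and that of divergent neighbors at 0.41.

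The pairs at both ends of this range, with at least 10 CPM in some group for each gene, were led by genes already described or by genes with a strong stage response. The lowest r was -0.965 for NCU02195 and NCU02194. It was -0.956 for NCU04569 and NCU04568 (506 bases, convergent, chromosome V), where NCU04568, *mfs-17* in the study's annotation, went from 0.264, 0.493, 0.152 and 0.321 CPM in WT S to 46.9 and 20.1 CPM in A15 dark (log2FC 6.77, adjusted P = 2.09e-06) and from at most 1.24 CPM to 242 and 287 CPM in the mutant (log2FC 8.71, adjusted P = 1.88e-07). NCU04569 had a log2FC of -0.81 in the wild type (adjusted P = 0.391) and fell in the mutant (-2.47, adjusted P = 0.0123), from 25.6, 28.7, 65.6 and 80.7 CPM to 13.3 and 4.68 CPM. The third, NCU02694 and NCU02695 (2307 bases, r = -0.923), made smaller moves, 1.40 (adjusted P = 0.000446) and -0.84 (adjusted P = 0.0258) with stage in the mutant.

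The highest r was 0.988 for NCU09968 and NCU09969. It was 0.958 for NCU03703 and NCU03704, whose levels fell together with stage in the mutant, NCU03703 from 3522, 4043, 2932 and 2754 CPM to 576 and 1656 CPM (log2FC -1.58, adjusted P = 0.00711) and NCU03704 from 111, 59.7, 81.9 and 63.5 CPM to 22.7 and 9.43 CPM (log2FC -2.31, adjusted P = 0.000576). It was 0.951 for the nested NCU15835 and NCU10016. NCU10016 was at most 1.31 CPM in any S library and 20.8 to 575 CPM in A15, while NCU15835 stayed between 27.2 and 73.9 CPM in all S and A15 libraries (log2FC 0.90 with stage in the mutant, adjusted P = 0.0179). A high r thus also arose where one gene moved strongly and the other little. Of the 5 pairs with symbols, *po* and *msh1* had an r of 0.646, *pro-1* and *hat-1* 0.623, *ro-2* and *crp-15* 0.420, *gh18-5* and *ubi::crp-6* 0.058 and *pro-3* and *mcl-1* 0.047.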

How the data were processed

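Poly(A)-selected RNA of 24 libraries was sequenced by the authors as single-end reads, aligned to the NC12 build of OR74A (TopHat2 2.11 in the submitters' processing notes) and summed per gene in SeqMonk, set for reads that lie opposite to the strand of their transcript. The deposited values are raw counts for 9758 genes. Groups came from the sample labels. Pairs, lists and tests were chosen with earlier results of these data known. Counts were filtered (filterByExpr, minimum count 10), scaled by TMM and fitted with edgeR 4.0.16 (quasi-likelihood, group means, R 4.3.3), separately for V (8 libraries), A15 (8) and S with A15 (16). Genes with an adjusted P under 0.05 were called. Differences within pairs were tested with limma 3.58.1 (prior count 2). Alternatives were DESeq2 1.42.0, other scaling, no filter, a replicate block, other overlap and level limits, the study's threshold and leaving out each library. Named pairs were the 5 longest overlaps, up to 4 pairs called in each direction per comparison by the smaller change, pairs past the study's threshold, those with a gene of a list of light and development genes (*cry* alone), NCU09968 with NCU09969, up to 3 pairs at each end of r, the shortest overlap taken, and pairs with 2 symbols. The pair just under 500 bases, NCU06940 and NCU06941, shares 495. The fits were also run on simulated counts with large changes in independent libraries, which does not bear on the small changes called in V. All 603 genes were found in the RefSeq gene table. A gene with no count in a group has a fitted log2FC that depends on the prior count, so its fold is given against 3 counts per library.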

Additional observations from a re-analysis of the deposited data

Results flagged for a closer look

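In groups of 4 S libraries, 1 library stood apart by more than Dixon's 95% critical value (its gap to the nearest other library over the group's range) in 15 of 123 sets of gene and group examined. Chance alone flags about 1 in 20. In WT S, replicate 3 stood apart for NCU00079 (16.9 CPM against 10.6 to 11.2, ratio 0.907), NCU00695 (41.6 against 47.2 to 47.9, 0.887), NCU05252 (29.3 against 13.3 to 14.2, 0.943), *trp-3* (774 against 323 to 364, 0.910), NCU08688 (8.13 against 4.29 to 4.79, 0.870) and NCU11365 (51.2 against 15.9 to 18.6, 0.923). Replicate 4 stood apart for *cry* (16.7 CPM against 0.916 to 2.81, 0.880) and *pro-1* (25.5 against 19.2 to 20.0, 0.866), replicate 1 for *crp-15* (2378 against 1630 to 1754, 0.834) and replicate 2 for NCU03704 (66.0 against 53.3 to 55.3, 0.843).

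In mutant S, replicate 1 stood apart for *mcl-1* (18.5 CPM against 12.9 to 13.8, 0.835) and NCU07127 (56.6 against 38.5 to 41.0, 0.861), replicate 2 for NCU02694 (8.18 against 7.85 to 7.87, 0.913) and NCU09355 (199 against 62.1 to 82.4, 0.852), and replicate 3 for *ace-8* (2095 against 990 to 1113, 0.888). Of the 10 sets in WT S, 6 were set apart by replicate 3.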

How the results depend on the processing

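Counts of pairs with both genes called were small and moved with the fit, while no named gene reversed. With libraries scaled by totals alone, the same-direction counts were 1 in V dark and 1 in V light between strains, 2 in A15 light and 3 with light in wild-type V, the opposite counts were 0 in V dark, V light and with light in mutant V, and the shares with the same sign were 56.7% for strain in A15 dark, 60.8% for light in mutant A15 and 46.4% for stage in the mutant. That scaling shifted the median log2FC of all genes by -0.26 and -0.14 between strains in A15 dark and light, and the split of called genes of pairs was 3 higher and 9 lower in A15 dark (4 and 3 before), 0 and 5 in S (1 and 3). The split of all genes under it was not taken. DESeq2 gave 2 same in S, 1 opposite in A15 dark, 2 opposite in V light, 3 same and 2 opposite in A15 light, 0 opposite with light in mutant V, and 1 same with light in A15 of each strain. One fit to all 24 libraries gave 2 same in S, 1 same and 0 opposite in V dark and in V light, 1 opposite in A15 dark, 2 same in A15 light, 0 and 0 with light in V of either strain, 17 and 16 with stage in the wild type and 44 same in the mutant. The study's threshold left 1 same and 0 opposite in V dark and V light, 0 same in S, A15 dark and A15 light, 0 and 0 with light in V of both strains, with stage 1 and 0 (wild type) and 1 and 1 (mutant). With a log prior of 0.5 no within-pair difference changed in S. Pairs with both genes at 10 CPM had 48.1% the same sign with light in mutant V, and overlaps of 1000 bases or more 61.4% with stage in the mutant. The co-variation over groups had a median r of 0.041 without the V groups and 0.083 with scaling by totals, which took convergent neighbors from 0.10 to 0.30 and divergent neighbors from 0.41 to 0.47. Labels give replicate numbers without saying what they share, and the light-exposed A15 libraries carry 3 and 4 in their codes but 1 and 2 in their titles. Same-numbered libraries correlated at 0.41 to 0.55 in V, where each comparison has 2 pairs, too few to decide, and not throughout in A15 (by title) and S, so the numbers were not taken as pairing. With a replicate block the called genes of pairs in V were 122 and 109 between strains in dark and light (23.1% and 20.6%, beside 25.6% and 24.1% of all genes). With light they were 113 and 109 in the wild type and mutant (21.4% and 20.6%, beside 26.1% and 23.6% of all genes). Under the block the counts of pairs were 7 same and 8 opposite in V dark, 4 and 4 in V light. They were 5 opposite with light in wild-type V, and 5 and 2 in the mutant. Within-pair differences under the block changed in 56, 54 and 51 pairs in V dark, V light and with light in mutant V, and in 2 in S. Leaving out 1 library at a time, same-direction counts, opposite counts and shares with the same sign ranged as follows: S strain 1 to 1, 0 to 0, 50.8% to 59.7%. V dark 1 to 2, 0 to 1, 46.4% to 48.1%. V light 1 to 1, 0 to 0, 47.4% to 51.7%. A15 dark 0 to 3, 0 to 4, 42.6% to 48.6%. A15 light 0 to 1, 0 to 0, 41.8% to 50.4%. Light in V had 2 to 4, 0 to 1 and 45.5% to 57.7% in the wild type, against 1 to 2, 0 to 0 and 50.9% to 57.7% in the mutant. Light in A15 had 0 to 0, 0 to 0 and 47.0% to 52.8% in the wild type, against 0 to 2, 0 to 0 and 48.4% to 54.0% in the mutant. Stage had 3 to 7, 2 to 9 and 47.8% to 56.5% in the wild type, against 8 to 34, 8 to 21 and 45.9% to 55.7% in the mutant. The cause of these moves was not tested. Of the named genes' calls, 292 held and 64 were lost over these fits, 62 held and 8 were lost with scaling by totals, 66 and 3 with DESeq2, and 44 and 26 in the fit to all libraries. Where a group has 2 libraries, leaving 1 out assumes that the other varies like the remaining groups. Genes near 3 counts per library are limited by depth.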
